A study of Arabidopsis thaliana with 16 samples.

Results

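The Aux/IAA and GH3 families are 2 groups of plant genes that respond to the hormone auxin and whose products hold auxin response back. They were read as 36 genes, all 29 Aux/IAA genes (IAA1 to IAA20 and IAA26 to IAA34) and the auxin-conjugating GH3 genes GH3.1 to GH3.6 and GH3.17, chosen by locus identifier out of 32548 genes in the expression table. RNA came from 14-day-old Arabidopsis thaliana seedlings grown on plates under 16 h of light, sequenced as single-end reads of 50 bp. Each of 7 homozygous mutants was set against the wild type Col-0, with 2 libraries per genotype and 16 in all. The mutants were hda6, with hda6(-/-), and hda19, with hda19(-/-), each mutated in a histone deacetylase; sant1234, with sant1(-/-), sant2(-/-), sant3(-/-) and sant4(-/-); mbd124, with mbd1(-/-), mbd2(-/-) and mbd4(-/-); esant12, with esant1(-/-) and esant2(-/-); arid14, with arid1(-/-) and arid4(-/-); and rxt3, with rxt3(-/-). Histone deacetylases take acetyl groups off histones, and the study addressed those of the RPD3 type together with proteins of their complexes. The labels give no alleles and do not tell if paired libraries were grown or collected apart, so p-values measure the spread between these libraries, which may be technical.

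Aux/IAA proteins are short-lived repressors. They bind the auxin response factors (ARFs) that sit at auxin-responsive promoters, and recruit the corepressor TOPLESS (TPL), which is known to work with histone deacetylases. Auxin joins an Aux/IAA protein to a receptor of the TIR1/AFB family, which marks the Aux/IAA protein for destruction and frees the ARF. Many Aux/IAA genes are themselves switched on by the freed ARFs, and so are several GH3 genes, whose enzymes link auxin to amino acids and so lower the level of the free hormone. Transcripts of both families are therefore widely used as readouts of auxin response, but Aux/IAA genes also respond to light, temperature and the phytochrome-interacting factors (PIFs).

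The part of an Aux/IAA protein that auxin receptors bind is the degron, which is built around glycine, tryptophan and a pair of prolines. It was searched for in the coding sequences as a 12-base core of the codons GGN, TGG, CCN and CCN in a row and in frame. Of the 29 Aux/IAA genes 23 carried the core, and 6 did not (IAA20, IAA30, IAA31, IAA32, IAA33 and IAA34). No GH3 gene carried it, and 11 of 27408 other protein-coding genes did. The stretches below are 30 coding bases, 5′ to 3′, from the RefSeq annotation of TAIR10.1, with the core in capitals, for the 4 Aux/IAA genes whose transcripts the results turn on and for IAA12, whose transcript moved the other way. In IAA29, 2 of the 3 annotated coding forms carried the core.
IAA29: gaagttgttGGATGGCCACCAgtaaaaaca
IAA19: caggtggtgGGGTGGCCACCGgtttgttct
IAA16: caagttgtgGGATGGCCACCGgtacgatct
IAA2: caaatcgttGGTTGGCCACCAgtgagatct
IAA12: caagtggtaGGATGGCCACCAattgggtta
The 5 stretches share the glycine, tryptophan and proline codons and differ in the last base of some codons and in the flanks.

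The promoters shown are those of the 4 genes called in 6 or 7 mutants. Each is the 300 bases before the annotated start of the gene in TAIR10.1, read 5′ to 3′ on the strand of the gene, with matches to TGTCTC (the classical auxin response element), TGTCGG (a form with higher affinity for ARFs) or CACGTG (the G-box, which PIFs among other factors bind) in capitals.
IAA29 promoter (chr4:15583032-15583331, + strand): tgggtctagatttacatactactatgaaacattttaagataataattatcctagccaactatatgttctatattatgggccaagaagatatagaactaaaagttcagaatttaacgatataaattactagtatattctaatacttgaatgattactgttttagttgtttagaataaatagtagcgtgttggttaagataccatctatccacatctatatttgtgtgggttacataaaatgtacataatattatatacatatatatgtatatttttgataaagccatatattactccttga
GH3.5 promoter (chr4:13653279-13653578, + strand): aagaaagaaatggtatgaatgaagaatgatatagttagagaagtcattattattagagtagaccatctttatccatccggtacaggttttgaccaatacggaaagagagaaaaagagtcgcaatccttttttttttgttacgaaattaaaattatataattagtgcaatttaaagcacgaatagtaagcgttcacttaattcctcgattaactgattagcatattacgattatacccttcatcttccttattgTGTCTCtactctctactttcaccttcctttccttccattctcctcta
IAA19 promoter (chr3:5263701-5264000, + strand): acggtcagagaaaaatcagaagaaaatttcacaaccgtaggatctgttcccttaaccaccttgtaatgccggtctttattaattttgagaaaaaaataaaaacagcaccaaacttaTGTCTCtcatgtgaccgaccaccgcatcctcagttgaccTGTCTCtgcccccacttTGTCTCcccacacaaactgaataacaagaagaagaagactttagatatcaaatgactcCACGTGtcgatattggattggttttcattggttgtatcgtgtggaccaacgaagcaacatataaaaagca
IAA12 promoter (chr1:1239994-1240293, + strand): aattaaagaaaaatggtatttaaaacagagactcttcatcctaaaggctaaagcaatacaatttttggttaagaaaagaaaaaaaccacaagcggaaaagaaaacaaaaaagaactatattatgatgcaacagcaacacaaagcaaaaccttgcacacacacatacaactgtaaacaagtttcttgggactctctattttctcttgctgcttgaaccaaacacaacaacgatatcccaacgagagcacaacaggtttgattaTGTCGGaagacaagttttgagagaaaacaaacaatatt
In IAA19 the letters TGTCTC stood at positions -184, -145 and -128 from the gene start and CACGTG at -70. GH3.5 held TGTCTC at -47, IAA12 held TGTCGG at -38, and IAA29 held none of the 3 in this window. Each motif was searched by itself on both strands, so matches of different motifs may share bases. TGTCTC was found in 14 of the 36 family promoters (38.9%) and in 13.0% of 27437 promoters of the same length. TGTCGG was found in 6 of 36 (16.7%) against 4.91% of all promoters, and CACGTG in 5 of 36 (13.9%) against 7.09%. A match describes letters only, and not binding.

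The 16 libraries held 19259579 to 19522197 reads that could be recovered from the deposited values, so depth differed little between them. As a check of the labels, HDA19 stood at 0.136% of its wild-type level in hda19 (adjusted p = 4.7e-10 with limma), MBD1, MBD2 and MBD4 at 0.469%, 37.6% and 6.23% in mbd124, HDC1 (the RXT3-like gene of the reference) at 29.6% in rxt3 and ARID1 at 49.7% in arid14. HDA6 stood at 113% in hda6 (adjusted p = 0.14), so its level does not check that label, and the genes of sant1234, esant12 and the ARID4 part of arid14 were not read. Values below are deposited normalised read counts. Differences are log2 fold changes, mutant minus wild type, on the log2(value + 1) scale, with adjusted p-values from limma over the 20846 genes that reached 10 in 2 or more libraries. A gene is called at an adjusted p under 0.05. In bulk seedling RNA, more cells of a type and more RNA per cell cannot be told apart.

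Per kilobase of exon, the most abundant family members in wild type were IAA16 (2513 normalised reads per kilobase), IAA2 (2161), IAA7 (2081), IAA8 (1912) and IAA9 (1782). The GH3 genes were lower, led by GH3.6 (434.9), GH3.17 (339.2) and GH3.5 (286.8). The 6 Aux/IAA genes without the degron core were all near the bottom of the scale, from 0.8005 for IAA32 to 19.05 for IAA30, with a median of 7.54, while the 23 with the core ran from 1.14 for IAA15 to 2513, with a median of 494.7. IAA15, IAA20, IAA32 and IAA33 had 0 to 7 reads in each library and GH3.4 had no read in any of the 16, so these 5 genes were not tested. The other 31 (25 Aux/IAA and 6 GH3) passed the filter. Only 3 of the 6 genes without the core were among them, IAA30, IAA31 and IAA34.

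**Figure D1:**
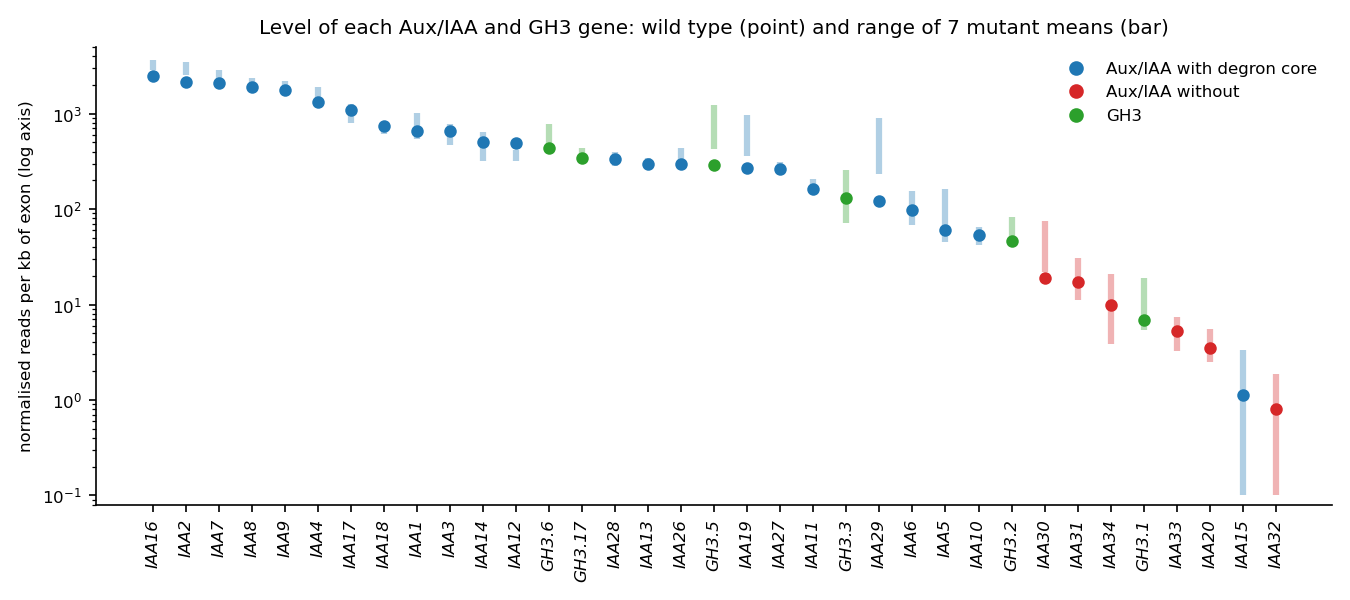
Level of 35 family genes in normalised reads per kilobase of exon (log axis), ordered by wild type. Points are wild-type means and bars span the 7 mutant means, with blue for Aux/IAA genes with the degron core, red for those without and green for GH3 genes. GH3.4, with no read, is left out, and bars of IAA15 and IAA32 are cut at the lower end because some mutant means are 0. The bars of IAA29 and IAA19 and of GH3.5 lie wholly above their wild-type points.

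An F test over the 8 genotypes called 29 of the 31 tested members, 23 of 25 Aux/IAA and 6 of 6 GH3 genes, where 71.8% of all genes were called. IAA10 (adjusted p = 0.22) and IAA31 (adjusted p = 0.091) were the exceptions. Against wild type, family members were called higher more often than lower in every mutant. In arid14, 14 were higher and 2 lower, against 15.1% and 17.2% of all genes. In rxt3, 12 were higher and 4 lower (22.3% and 24.9% of all genes), and in hda6, 9 were higher and 5 lower (11.2% and 12.5%). In hda19, 7 were higher and 3 lower, with 14% and 16.2% of all genes. The counts were 7 and 2 in esant12 (11.5% and 14.3%), 6 and 1 in sant1234 (8.53% and 11.3%) and 3 and 0 in mbd124 (4.73% and 5.27%). The 0 lower members of mbd124 are from limma, where 1 (IAA12) had an unadjusted p under 0.05, and edgeR on recovered reads also gave 0.

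The median log2 fold change of the 31 tested members was 0.29 in arid14, 0.22 in rxt3, 0.16 in sant1234, 0.13 in hda19, 0.12 in mbd124, 0.09 in esant12 and 0 in hda6, while the median of all genes lay between -0.02 and 0.01. By family, in arid14 9 of 25 tested Aux/IAA genes were higher and 2 lower with a median of 0.22. Of 6 tested GH3 genes, 5 were higher and none lower in arid14 with a median of 0.89, against 15.1% and 17.2% of all genes. In rxt3, 10 of the 25 Aux/IAA genes were higher and 4 lower, and 2 of the 6 GH3 genes were higher. The shares of all genes in rxt3 were 22.3% higher and 24.9% lower. Several counts rest on single libraries. Without wild-type replicate 1 the number called fell to 7 in hda6, 6 in hda19, 4 in sant1234 and 2 in esant12. Without the second library of the mutant it fell to 7 in hda6, 6 in hda19, 3 in sant1234, 1 in mbd124 and 3 in esant12, and without wild-type replicate 2 it fell to 9 in hda6.

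**Figure D2:**
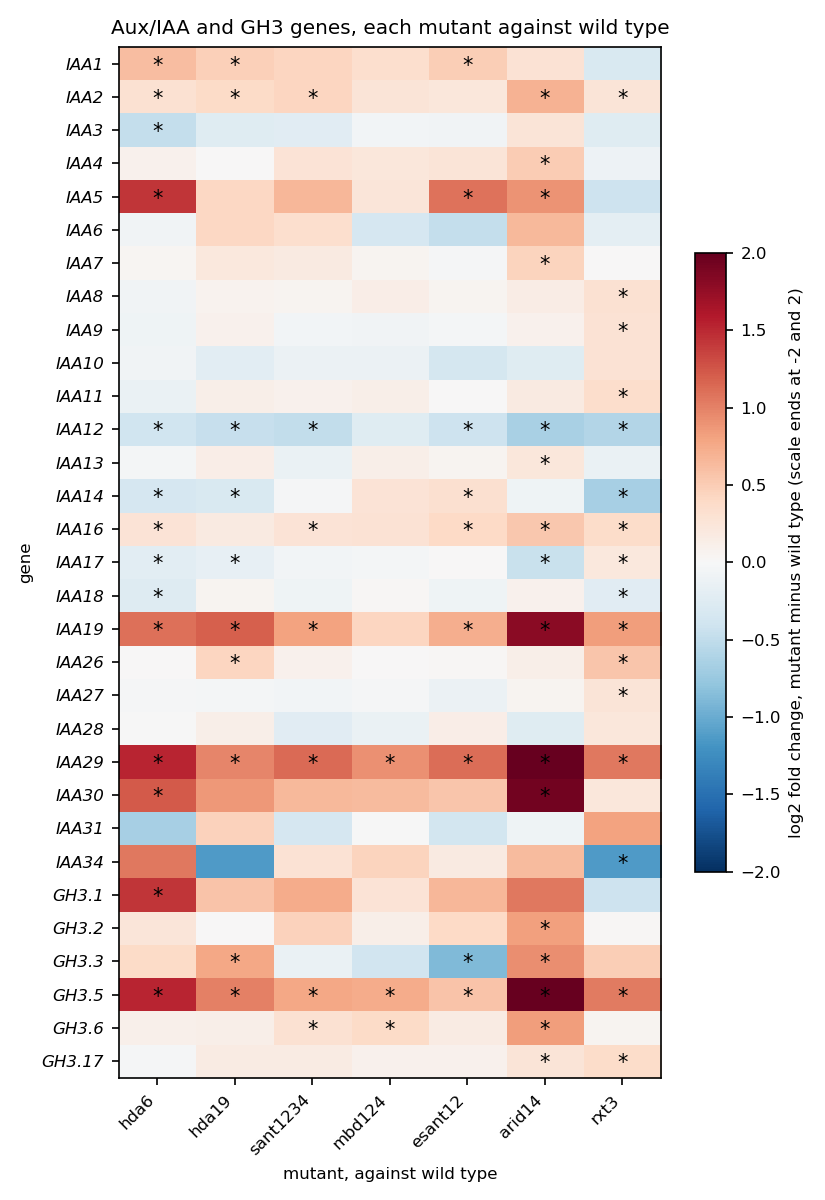
Log2 fold change of the 31 tested family genes in each mutant against wild type. Red is higher and blue lower in the mutant, colours end at -2 and 2, and an asterisk marks an adjusted p under 0.05 with limma. Rows IAA29 and GH3.5 are marked in all 7 columns, IAA19 and IAA12 in 6, and most other rows in 1 or 2.

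Of the 31 tested members, 4 were called in no mutant (27.3% of all genes), 11 in 1 (25.6%), 4 in 2 (17.1%), 4 in 3 (11.3%), 2 in 4 (7.51%) and 2 in 5 (5%). IAA19 and IAA12 were called in 6 (3.29% of all genes), and IAA29 and GH3.5 in 7 (2.96%). The numbers for 0 to 5 mutants are given beside these shares as a description. Higher in 6 or 7 mutants were 3 members (IAA29, GH3.5 and IAA19), against 2.18% of all genes. Lower in 6 or 7 was 1 (IAA12), against 3.76%, which is no more than the share of all genes gives. The 7 comparisons share the wild-type libraries, so the calls are not independent of each other.

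IAA29 (AT4G32280, chr4:15583332-15584903) encodes an Aux/IAA repressor known as a target of PIF4 and as a gene raised by shade and warmth. Its normalised read counts were 429.6 and 478.2 in hda6, 304.9 and 312.4 in hda19, 314.7 and 374.9 in sant1234, 295 and 297.7 in mbd124, 289.5 and 398.2 in esant12, 1031 and 1279 in arid14 and 343.4 and 306.9 in rxt3, against 139.2 and 175.8 in wild type. All 14 mutant libraries lay above both wild-type libraries, and the arid14 libraries stood far above the rest. The log2 fold change was 2.87 ± 0.15 (SE) in arid14 (7.3-fold, adjusted p = 2e-08), 1.53 in hda6 (adjusted p = 8.7e-06) and 0.92 to 1.13 in the other 5 mutants (adjusted p at most 0.0021 with limma). The call held in every mutant under every alternative tried.

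GH3.5 (AT4G27260, chr4:13653579-13656285), also called WES1, encodes an enzyme that conjugates auxin, and salicylic acid, to amino acids. It had 1770 and 2122 normalised reads in hda6, 1336 and 1357 in hda19, 1104 and 1217 in sant1234, 1056 and 1191 in mbd124, 969.8 and 1031 in esant12, 2394 and 3460 in arid14 and 1306 and 1468 in rxt3, against 609.4 and 742.3 in wild type. Every mutant library was again above both wild-type libraries. The log2 fold change was 2.1 ± 0.14 in arid14 (4.27-fold, adjusted p = 1.7e-07), 1.53 in hda6, 1.04 in rxt3, 1 in hda19, 0.78 in sant1234, 0.74 in mbd124 and 0.57 in esant12 (adjusted p = 0.0089, the highest of the 7 with limma). The mbd124 call was lost without wild-type replicate 1 or mbd124 replicate 2 (adjusted p up to 0.063), and the esant12 call without wild-type replicate 1 or esant12 replicate 2 (adjusted p up to 0.096).

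IAA19 (AT3G15540, chr3:5264001-5265695), also called MSG2, encodes a repressor that acts in hypocotyl growth and tropic bending. It had 513 and 653.9 normalised reads in hda6, 631.8 and 607.3 in hda19, 451.2 and 490.5 in sant1234, 331.3 and 400.2 in mbd124, 400.2 and 495.8 in esant12, 736.8 and 1210 in arid14 and 448.1 and 511.4 in rxt3, against 230.6 and 314.7 in wild type. No mutant library overlapped the wild type, though the lower mbd124 library was close to it. The log2 fold change was 1.81 ± 0.20 in arid14 (adjusted p = 1.3e-05), 1.20 in hda19, 1.1 in hda6, 0.83 in rxt3, 0.80 in sant1234 and 0.72 in esant12 (adjusted p at most 0.017 with limma), and 0.43 in mbd124, which did not pass (adjusted p = 0.21). Without wild-type replicate 1 the calls in sant1234, esant12 and rxt3 were lost (adjusted p up to 0.12, 0.16 and 0.054), as were those in sant1234 and esant12 without replicate 2 of the mutant.

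IAA12 (AT1G04550, chr1:1240294-1242157), also called BODENLOS, encodes the repressor that holds ARF5 in check when the embryonic root forms. Its counts were 569.6 and 563 in hda6, 554.1 and 529 in hda19, 539.9 and 514.4 in sant1234, 634.3 and 621.8 in mbd124, 584.1 and 529.6 in esant12, 412.2 and 543.6 in arid14 and 492 and 495.5 in rxt3, against 715.8 and 777.3 in wild type. All 14 mutant libraries lay below both wild-type libraries. The log2 fold change was -0.65 ± 0.10 in arid14 (adjusted p = 0.00018), -0.59 in rxt3, -0.50 in sant1234, -0.46 in hda19, -0.42 in esant12 and -0.40 in hda6 (adjusted p at most 0.011 with limma), and -0.25 in mbd124, which did not pass (adjusted p = 0.14). The hda6 and esant12 calls were lost without wild-type replicate 2 or replicate 2 of the mutant (adjusted p up to 0.082 and 0.063).

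**Figure D3:**
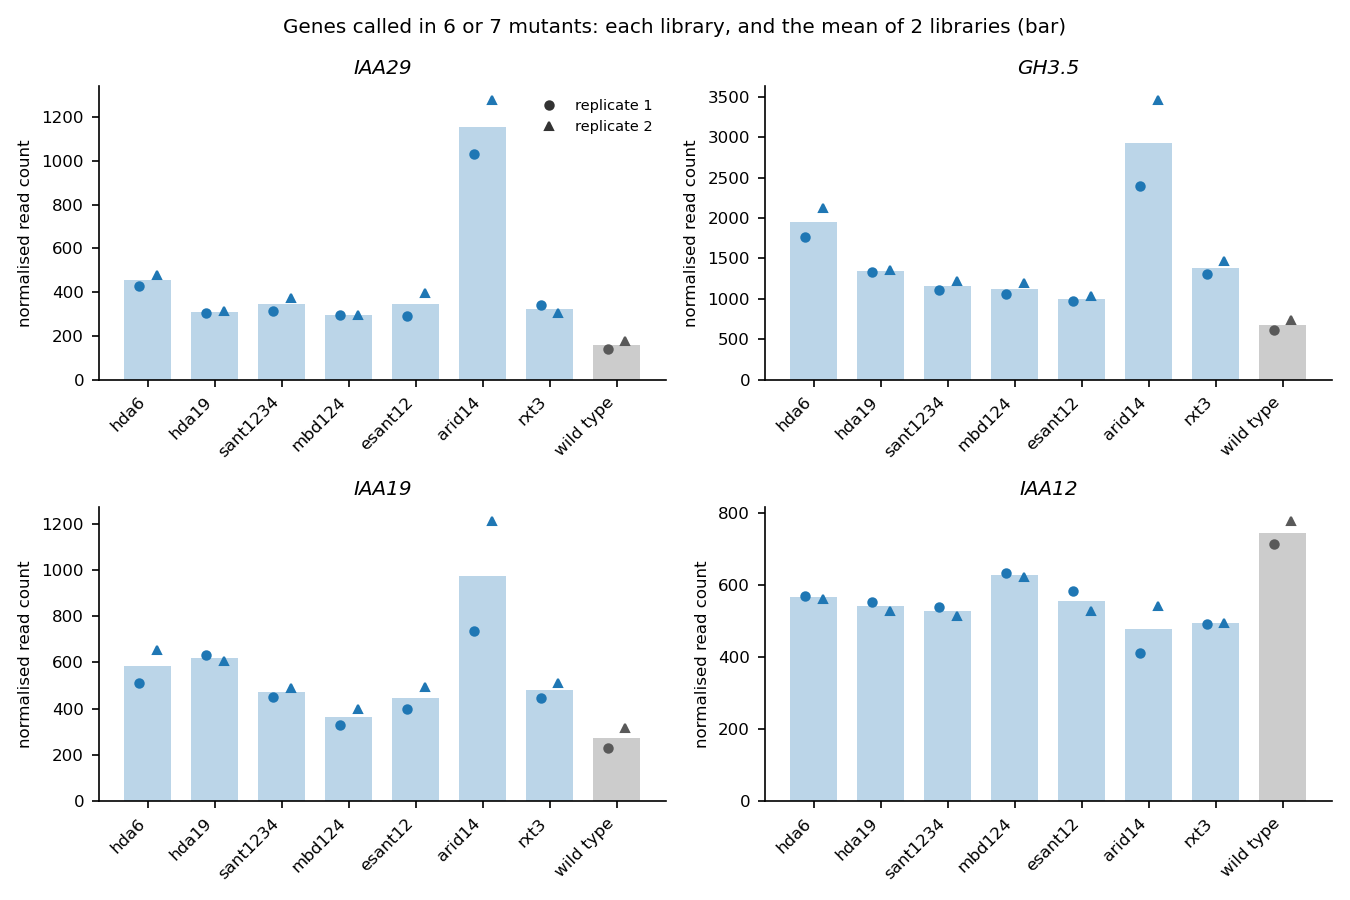
Normalised read counts of IAA29, GH3.5, IAA19 and IAA12 in every library (circles, replicate 1, and triangles, replicate 2) with genotype means as bars, mutants in blue and wild type in grey. The arid14 libraries are the highest for IAA29, at 1031 and 1279, and the wild-type libraries are the highest for IAA12, at 715.8 and 777.3.

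The 2 most abundant Aux/IAA genes per kilobase, IAA16 and IAA2, rose by less and in 5 mutants each. IAA2 (AT3G23030) had 3458 and 3840 normalised reads in hda6, 4074 and 3585 in hda19, 3879 and 4025 in sant1234, 3437 and 3556 in mbd124, 3590 and 3264 in esant12, 4289 and 5246 in arid14 and 3232 and 3787 in rxt3, against 2797 and 3071 in wild type. Its log2 fold change was 0.69 in arid14 (adjusted p = 0.00011), 0.43 in sant1234, 0.38 in hda19, 0.31 in hda6 and 0.26 in rxt3 (adjusted p = 0.047 with limma), and 0.25 in mbd124 and 0.22 in esant12 without a call. The arid14 libraries of IAA2 were the highest of the 16. IAA16 (AT3G04730) had 5827 and 6528 normalised reads in hda6, 5779 and 5711 in hda19, 5967 and 6402 in sant1234, 5884 and 6523 in mbd124, 6774 and 6620 in esant12, 6750 and 8085 in arid14 and 6283 and 6755 in rxt3, against 4780 and 5397 in wild type. Its log2 fold change was 0.54 in arid14 (adjusted p = 0.00029), 0.40 in esant12, 0.36 in rxt3 and 0.28 in both hda6 and sant1234. In mbd124 it was 0.29, as large as in hda6 and sant1234, with an adjusted p of 0.051, and in hda19 it was 0.18 (adjusted p = 0.14 with limma). Both genes lay above wild type in every mutant library. Without wild-type replicate 1 the calls of IAA2 in 4 mutants and of IAA16 in 3 were lost, and the arid14 call of each held in every alternative.

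IAA5 and IAA1 were each called in 3 mutants. IAA5 (AT1G15580), a gene induced quickly by auxin, had 116.8 and 135.8 normalised reads in hda6, 70.77 and 54.05 in hda19, 62.73 and 87.75 in sant1234, 50.59 and 58.9 in mbd124, 88.2 and 110.7 in esant12, 65.81 and 115.5 in arid14 and 28.11 and 42.49 in rxt3, against 36.76 and 57.95 in wild type. Both libraries of hda6, esant12, arid14 and sant1234 were above the wild type, with log2 fold changes of 1.43 in hda6 (adjusted p = 0.0032), 1.08 in esant12 and 0.90 in arid14 (adjusted p = 0.03 with limma). In rxt3, which overlapped the wild type, the log2 fold change was -0.41 and did not pass, and in sant1234 it was 0.67 (adjusted p = 0.13). The esant12 and arid14 calls were lost without wild-type replicate 1 or replicate 2 of the mutant (adjusted p up to 0.15 and 0.3). IAA1 (AT4G14560), also called AXR5, had 841 and 1070 normalised reads in hda6, 851 and 874.4 in hda19, 807.8 and 866.4 in sant1234, 725.3 and 840.1 in mbd124, 830 and 920.7 in esant12, 659.3 and 872.1 in arid14 and 432.3 and 590.5 in rxt3, against 549.8 and 701.4 in wild type. It was called higher in hda6 (0.61), hda19 (0.47) and esant12 (0.49), none of which held without wild-type replicate 1, and its lowest library was one of rxt3 (-0.30, adjusted p = 0.15).

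IAA30 (AT3G62100), which lacks the degron core and so the part that receptors bind, had 38.63 and 51.92 normalised reads in hda6, 32.88 and 36.78 in hda19, 31.88 and 27.91 in sant1234, 19.75 and 43.6 in mbd124, 24.92 and 31.48 in esant12, 60.94 and 89.61 in arid14 and 22.37 and 21.71 in rxt3, against 21.88 and 15.98 in wild type. It was called higher in arid14 (1.93 ± 0.32, adjusted p = 0.00039) and in hda6 (1.22, adjusted p = 0.014). The hda6 call was lost without hda6 replicate 2 or wild-type replicate 2 (adjusted p up to 0.12). The other tested genes without the core were near the filter. IAA34 had 19.31 and 22.96 normalised reads in hda6, 4.984 and 2.883 in hda19, 10.95 and 12.96 in sant1234, 12.39 and 14.22 in mbd124, 16.49 and 7.148 in esant12, 11.78 and 19.92 in arid14 and 4.873 and 2.955 in rxt3, against 6.952 and 12.99 in wild type. Its highest library was hda6 replicate 2, and against wild type it was called lower in rxt3 (-1.13, adjusted p = 0.04), a call lost with edgeR, with DESeq2, with no filter and without rxt3 replicate 2 or wild-type replicate 2. IAA31 ranged from 6.12 to 27.64 over the 16 libraries with no call.

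IAA14 and IAA17 were called in opposite directions in different mutants, and IAA3 was called in 1 mutant only. IAA14 (AT4G14550), also called SOLITARY-ROOT, a repressor of lateral root formation, had 710.9 and 805.6 normalised reads in hda6, 775.3 and 783.4 in hda19, 988.1 and 891.3 in sant1234, 1174 and 1140 in mbd124, 1241 and 1159 in esant12, 807.9 and 999.4 in arid14 and 548.2 and 668.4 in rxt3, against 959.5 and 955.1 in wild type. It was called lower in rxt3 (-0.66, adjusted p = 0.00014), hda6 (-0.34) and hda19 (-0.30) and higher in esant12 (0.32, adjusted p = 0.032 with limma). The calls other than that in rxt3 were lost without either wild-type library (adjusted p up to 0.19). IAA17 (AT1G04250), also called AXR3, had 1020 and 1106 reads in arid14, 1207 and 1272 in hda6, 1298 and 1259 in hda19 and 1617 and 1702 in rxt3, against 1457 and 1418 in wild type. It was lower in arid14 (-0.44, adjusted p = 2.5e-05), hda6 (-0.21) and hda19 (-0.17) and higher in rxt3 (0.21, adjusted p = 0.0051), and the calls in arid14 and rxt3 held in every alternative. Those in hda6 and hda19 were lost with DESeq2 and without wild-type replicate 1 (adjusted p up to 0.092 and 0.14). IAA3 (AT1G04240), also called SHY2, had 587 and 693.8 normalised reads in hda6, 819.2 and 671.8 in hda19, 730.1 and 771.7 in sant1234, 799.5 and 896 in mbd124, 841.2 and 835.4 in esant12, 898.4 and 1230 in arid14 and 726.3 and 765.1 in rxt3, against 842.1 and 924.2 in wild type. It was lower in hda6 (-0.47, adjusted p = 0.017), and the call was lost without hda6 replicate 1 or wild-type replicate 2 (adjusted p up to 0.13).

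Several members were called in 1 or 2 mutants by less than 1.5-fold. In rxt3 these were IAA8 (0.30) and IAA9 (0.29), a pair of close relatives, IAA11 (0.35), IAA27 (0.26) and IAA26 (0.56), while IAA18 fell by 0.23 on the log2 scale. The IAA11 and IAA27 calls were lost with DESeq2 and without rxt3 replicate 1 (adjusted p up to 0.089 and 0.11). IAA9 had 4649 and 4673 normalised reads in rxt3, against 3729 and 3894 in wild type, and the rxt3 libraries were the highest of the 16. IAA26, also called PAP1 for its binding to phytochrome, also rose in hda19 (0.43, adjusted p = 0.00059), and its calls held in every alternative. In arid14 the members were IAA4 (0.50), IAA7 (0.44), also called AXR2, and IAA13 (0.22), a close relative of IAA12, whose call was lost in 6 alternatives (adjusted p up to 0.23). IAA18 was also called lower in hda6 (-0.26), but edgeR and DESeq2 called it in neither mutant. IAA6, IAA10, IAA28 and IAA31 were called in no mutant, with log2 fold changes of -0.47 to 0.65, -0.35 to 0.29, -0.24 to 0.23 and -0.67 to 0.80. IAA6 had 71.12 and 84.86 normalised reads in hda6, 127.6 and 93.62 in hda19, 92.62 and 115.7 in sant1234, 56.82 and 72.09 in mbd124, 54.96 and 61.97 in esant12, 99.24 and 166.3 in arid14 and 59.18 and 84.96 in rxt3, against 65.58 and 100.9 in wild type. It was higher in arid14 than in rxt3 (0.85, adjusted p = 0.022), mbd124 (0.99) and esant12 (1.13, adjusted p = 0.0066 with limma).

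Among the GH3 enzymes other than GH3.5, GH3.2, GH3.3, GH3.6 and GH3.17 were called higher in arid14. In each of the other mutants fewer of these enzymes were called. GH3.6 (AT5G54510), also called DFL1, had 1066 and 1090 normalised reads in hda6, 1104 and 1065 in hda19, 1282 and 1223 in sant1234, 1258 and 1380 in mbd124, 1138 and 1124 in esant12, 1690 and 1941 in arid14 and 942.9 and 1149 in rxt3, against 1057 and 961.1 in wild type. It rose in arid14 (0.84 ± 0.09, adjusted p = 6.8e-06), mbd124 (0.39) and sant1234 (0.31, adjusted p = 0.022 with limma), and the mbd124 and sant1234 calls were lost without wild-type replicate 2 or replicate 2 of the mutant (adjusted p up to 0.12 and 0.16). GH3.3 (AT2G23170) had 354.4 and 372.4 normalised reads in hda6, 328.8 and 693.6 in hda19, 261 and 247.2 in sant1234, 202.3 and 225.5 in mbd124, 133.8 and 169.6 in esant12, 466.4 and 609.3 in arid14 and 436.9 and 351.3 in rxt3, against 277.4 and 279.7 in wild type. It was higher in arid14 (0.93, adjusted p = 0.0093) and hda19 (0.78, adjusted p = 0.027) and lower in esant12 (-0.88, adjusted p = 0.016). The 2 hda19 libraries were far apart, and that call was lost without hda19 replicate 2 or either wild-type library (adjusted p up to 0.37). The arid14 call was lost without arid14 replicate 2 (adjusted p = 0.09), and the esant12 call without either wild-type library or esant12 replicate 1 (adjusted p up to 0.13).

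GH3.2 (AT4G37390) had 116.8 and 117.8 normalised reads in hda6, 91.67 and 107.5 in hda19, 136.5 and 138.6 in sant1234, 94.03 and 124.9 in mbd124, 142.8 and 121 in esant12, 148.5 and 210.1 in arid14 and 85.4 and 118.5 in rxt3, against 88.46 and 111.9 in wild type. It rose in arid14 (0.82, adjusted p = 0.0065), a call lost without arid14 replicate 2 or wild-type replicate 1 (adjusted p up to 0.089). GH3.17 (AT1G28130), which conjugates auxin to glutamate, was higher in rxt3, at 1214 and 1168 against 909.7 and 947.1 in wild type (0.36, adjusted p = 0.0012), and in arid14, at 1150 and 1061 (0.25, adjusted p = 0.019), where the call was lost without arid14 replicate 1 or wild-type replicate 1 (adjusted p up to 0.14). GH3.1 (AT2G14960) was a low gene, with 29.53 and 55.91 normalised reads in hda6, 27.91 and 17.33 in hda19, 23.9 and 25.92 in sant1234, 20.59 and 15.26 in mbd124, 24.84 and 22.37 in esant12, 30.51 and 31.85 in arid14 and 18.56 and 5.887 in rxt3, against 9.928 and 20.98 in wild type. It rose in hda6 (1.43, adjusted p = 0.036), and the call was lost without hda6 replicate 2, without wild-type replicate 1, with no filter and with DESeq2.

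**Figure D4:**
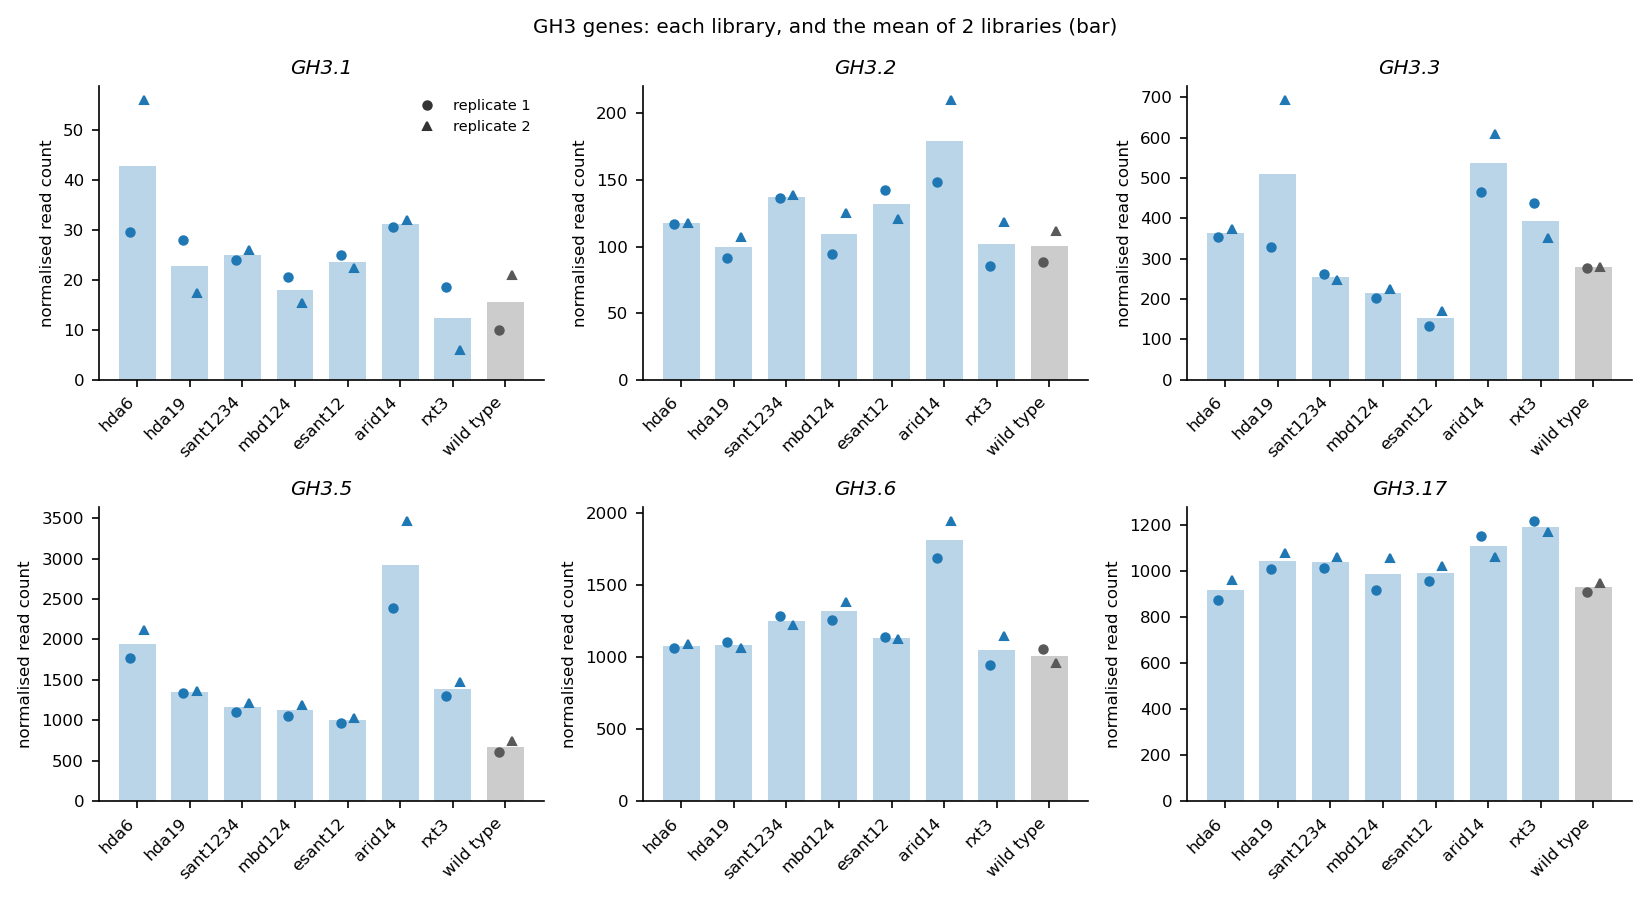
Normalised read counts of the 6 tested GH3 genes in every library (circles, replicate 1, and triangles, replicate 2), with genotype means as bars, mutants in blue and wild type in grey. In arid14 GH3.5 stands at 2394 and 3460 and GH3.6 at 1690 and 1941, while GH3.3 has 2 unequal hda19 libraries, at 328.8 and 693.6, and its lowest values in esant12.

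Mutants were then compared with each other. The wild-type libraries do not enter these differences, but they enter the spread that all contrasts of the fit share, and so the SE and p-values. The arid14 mutant was set against each of the other 6, a choice made after the data were seen. The rxt3 mutant also differed from the others: with limma, 16 of 31 members were called against hda6, 9 against hda19 and 14 against sant1234. Against mbd124 16 were called and against esant12 17, and shares of all genes were not read for these pairs. IAA1 was lower in rxt3 than in each other mutant (by 0.58 to 0.91), and IAA9 was higher. Against rxt3, 18 members were higher in arid14 and 5 lower, 23 of 31, where 42.5% of all genes were called. Against hda6, 16 were higher and 1 lower (24.9% of all genes called), against hda19, 11 and 3 (26.6%), and against mbd124, 11 and 3 (15.8%). Against esant12 the numbers were 10 and 3 (30.5%), and against sant1234, 9 and 1 (17%). IAA29, GH3.5, IAA19 and GH3.6 were higher in arid14 than in each of the other 6 mutants, 4 of 31 members against 1.08% of all genes. IAA17 was lower in arid14 than in each of the 6, 1 of 31 against 2.12% of all genes, a count close to that share. As arid14 was picked on these same data, these counts and shares are a description and not a test.

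The smallest of those differences for IAA29 was 1.34 ± 0.15 against hda6 (adjusted p = 2.1e-05) and for GH3.6 0.46 ± 0.09 against mbd124 (adjusted p = 0.0025). GH3.5 differed from hda6 by 0.57 ± 0.14 (adjusted p = 0.0091) and IAA19 from hda19 by 0.61 ± 0.20 (adjusted p = 0.038 with limma). IAA29 and GH3.6 stood apart under all 22 alternatives tried, GH3.5 in all but 2 and IAA19 in all but 5, among them those without arid14 replicate 2. The 2 arid14 libraries were unequal over the families: 27 of 31 members were higher in replicate 2, by a median of 0.29 (log2), while 50.1% of all genes were. In hda6 26 of 31 and in mbd124 25 of 31 were higher in replicate 2, with 50.6% and 50.1% of all genes, and in wild type 22 of 31 with 52.7%. The number was 22 of 31 in rxt3, 18 in sant1234, 17 in esant12 and 13 in hda19, where the median difference was -0.02. What sets these libraries of 1 genotype apart was not tested. Without arid14 replicate 2, the number of members called was 6 against hda6, 7 against hda19, 5 against sant1234 and 8 against mbd124. It was 5 against hda6 without hda6 replicate 1, 9 against hda19 without hda19 replicate 2, 6 against sant1234 without sant1234 replicate 2 and 6 against mbd124 without mbd124 replicate 1. Without arid14 replicate 1, 8 members were higher in arid14 than in each other mutant and none lower. Without arid14 replicate 2, 2 were higher and 2 lower, without hda6 replicate 1, 2 were higher, and without hda6 replicate 2, none was lower.

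The 2 deacetylase mutants differed at 7 of 31 members, where 23.9% of all genes were called. That count is no more than the share of all genes gives, and the members are named as a description. IAA34 stood at 19.31 and 22.96 normalised reads in hda6 and at 4.984 and 2.883 in hda19 (2.19 ± 0.42, adjusted p = 0.002). IAA5, IAA29 and GH3.5 were also higher in hda6 (1.01, 0.55 and 0.53), and IAA26, IAA18 and IAA9 were lower in hda6 than in hda19 (-0.43, -0.31 and -0.15). The number was 4 without hda6 replicate 1 or hda6 replicate 2, and 2 without hda19 replicate 2. No member was called between sant1234 and mbd124 with limma (2.13% of all genes), with 4 at an unadjusted p under 0.05 and 0 with edgeR. None was called between mbd124 and esant12 with limma (16.2% of all genes), with 3 at an unadjusted p under 0.05 and 1 with edgeR, and 1 without esant12 replicate 1.

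The receptors, ARFs and corepressors that act with the Aux/IAA proteins were read from lists of pathway genes. Of the 6 TIR1/AFB receptors, AFB1 rose in 6 mutants, by 0.88 ± 0.08 in arid14 (907 ± 77.3 against 491.3 ± 46.3 in wild type, SD, n = 2; adjusted p = 3.3e-06) and by 0.31 to 0.41 in the other 5, and stood at 0.10 in rxt3 without a call. TIR1 rose in esant12 (0.22) and fell in rxt3 (-0.16), AFB2 rose in esant12 (0.19), AFB5 fell in rxt3 (-0.41) and hda6 (-0.20), and AFB3 and AFB4 were called in no mutant. Of the 15 tested ARF genes, 5 were higher and 4 lower in arid14 (15.1% and 17.2% of all genes), 5 and 2 in hda19 (14% and 16.2%), 3 and 3 in rxt3 (22.3% and 24.9%) and fewer in the others, and the rxt3 counts are no more than the share of all genes gives. ARF19, an activator, rose in 6 mutants, by 0.69 ± 0.07 in hda19 (adjusted p = 1.3e-05), and ARF8 fell in 6, by 0.53 in rxt3 (adjusted p = 0.00014). ARF18 rose in 4, by 0.59 in arid14. ARF11 fell in hda19 alone (-0.82) and ARF10 in 2 mutants (-0.72 in rxt3). ARF5, the partner of IAA12, was called in rxt3 alone (0.44, adjusted p = 0.0011 with limma).

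Of the 5 TPL family corepressors, 3 rose in hda19, TPR1 (0.50), TPR3 (0.44) and TPL (0.17), where 14% of all genes were higher. In rxt3 4 fell, TPL (-0.30), TPR2 (-0.23), TPR3 (-0.35) and TPR4 (-0.17), and TPR1 rose (0.21). Of all genes, 24.9% were lower and 22.3% higher in rxt3. TPL also fell in sant1234 (-0.27), hda6 (-0.17) and esant12 (-0.15), and TPR3 in hda6 (-0.60) and esant12 (-0.53). TPR4 also fell in sant1234 (-0.20) and arid14 (-0.14), and no corepressor was called in mbd124.

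Among 11 tested genes of auxin synthesis, YUC9, an enzyme of the last step, rose in all 7 mutants, from 0.88 in mbd124 to 1.84 ± 0.14 in arid14 (274.7 ± 11.3 against 76.25 ± 3.79 in wild type, SD, n = 2; adjusted p = 5.8e-07). YUC8 was called in arid14 alone (1.04, adjusted p = 0.0076 with limma), and YUC4, a low gene, rose in 3 mutants, by 1.63 in hda6. TAR2 and CYP79B3 each fell in 2 mutants (-0.60 in esant12 and -0.59 in hda19). CYP79B2 fell in hda19 (-0.39) and rose in rxt3 (0.40). Of 15 tested transport genes, 7 were higher and 2 lower in arid14 (15.1% and 17.2% of all genes). In rxt3 6 were higher and 2 lower (22.3% and 24.9%), and fewer were higher in the others. Among those higher in arid14 were the importer AUX1 (0.67, adjusted p = 4.6e-06 with limma), which rose in 5 mutants, and the exporter PIN7 (0.63), which rose in 3. LAX3 rose in 2 mutants (0.77 in rxt3), PIN5 fell in 3 (-1.45 in hda19) and PID in arid14 alone (-0.80). PIN3 fell in hda19 (-0.47), hda6 (-0.45) and rxt3 (-0.31) and rose in arid14 (0.26).

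Of the 8 tested genes on a list of hydrolases of hormone conjugates and of enzymes that modify auxin, ILL6 rose in 5 mutants. Its log2 fold change was 1.34 in esant12 (adjusted p = 6.5e-05 with limma). IAR3 rose in 3 (0.66 in rxt3) and ILL2 in 2 (0.64 in rxt3). IAMT1 fell in esant12 (-0.43) and sant1234 (-0.37) and rose in rxt3 (0.52). The other GH3 genes read were the 3 listed whose symbols matched the reference, and GH3.7, GH3.8 and GH3.10 did not match. PBS3, needed for salicylic acid, fell by 2.06 on the log2 scale in sant1234 (adjusted p = 0.00021 with limma). It also fell in hda6 (-1.42) and esant12 (-0.99), and rose in hda19 (0.83). GH3.9 rose in 3 mutants (1.42 in hda6), as did JAR1, which makes the active jasmonate conjugate (0.32 in rxt3).

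The SAUR genes, also auxin-responsive, promote cell expansion, and 64 of those listed were tested. The symbol SAUR21 matched a locus whose product is given as an ARM repeat protein, so the list may hold a gene outside this family. In arid14, 19 were higher and 4 lower, against 15.1% and 17.2% of all genes, with a median log2 fold change of 0.27. In rxt3, 18 were higher and 14 lower (22.3% and 24.9% of all genes) with a median of 0.10, and in hda19, 11 and 13 (14% and 16.2%) with a median of -0.02, counts near those of all genes. SAUR22 rose in 4 mutants, by 1.72 ± 0.17 in arid14 (502.5 ± 55.2 against 153 ± 29.5 in wild type, SD, n = 2, adjusted p = 3.7e-06 with limma). SAUR45 (2.11) and SAUR76 (2.04) rose in rxt3 alone. SAUR48 fell in arid14 (-1.76) and rose in hda19 (1.06), rxt3 (0.91) and hda6 (0.82). SAUR57 fell in 3 mutants (-2.17 in hda19) and SAUR54 in hda19 alone (-1.31). Members of this family are close in sequence, and how reads of 50 bp shared between copies were assigned is not given in the sources used here. The same holds for close pairs of Aux/IAA and GH3 genes.

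Genes that mark the shade response and the clock moved beside the families. Of the 7 tested HD-ZIP and LBD targets, HB-2 rose in all 7 mutants, from 0.67 in sant1234 to 2.32 ± 0.17 in arid14 (4764 ± 1450 against 942.1 ± 191 in wild type, SD, n = 2; adjusted p = 3.6e-07), as did HAT3, from 0.42 to 1.43 in arid14, while HAT2 rose in 5, by 0.84 in hda19. Of the 9 PIF factors and their targets, 6 were higher and 1 lower in arid14 (15.1% and 17.2% of all genes). The numbers were 6 and 0 in sant1234 (8.53% and 11.3%), 5 and 0 in hda6 (11.2% and 12.5%) and 4 and 0 in mbd124 (4.73% and 5.27%). They were 4 and 1 in esant12 (11.5% and 14.3%), 4 and 2 in hda19 (14% and 16.2%) and 2 and 1 in rxt3 (22.3% and 24.9%). CKX5 was higher in all 7 mutants (2.32 in arid14) and PIL1 in 5 (2.38 in arid14, adjusted p = 2.4e-06 with limma). HFR1 rose in arid14 (1.67), esant12 (1.36) and hda6 (0.60) and fell in hda19 (-0.87) and rxt3 (-0.62), XTH17 fell in esant12 (-1.04) and hda19 (-0.63) and rose in sant1234 (0.49), hda6 (0.42) and arid14 (0.38), and PIF7 fell in arid14 (-0.62) and rose in mbd124 (0.40), sant1234 (0.36) and hda19 (0.29). Of the 11 clock genes, the morning gene LHY was lower in all 7 mutants, by 1.04 in arid14 (adjusted p = 2.5e-08 with limma). Its smallest fall was 0.38, in esant12. RVE8 was lower in 6 mutants (-1.02 in rxt3). PRR9 was lower in arid14 (-0.99) and sant1234 (-0.56) and higher in hda19 (0.42). PRR7 was higher in all 7 (0.33 to 0.64), TOC1 in 4 (0.65 in hda19) and ELF4 in rxt3 alone (1.05). The labels give no hour of harvest. The part of light response or clock time in the levels of the auxin families was not tested.

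**Figure D5:**
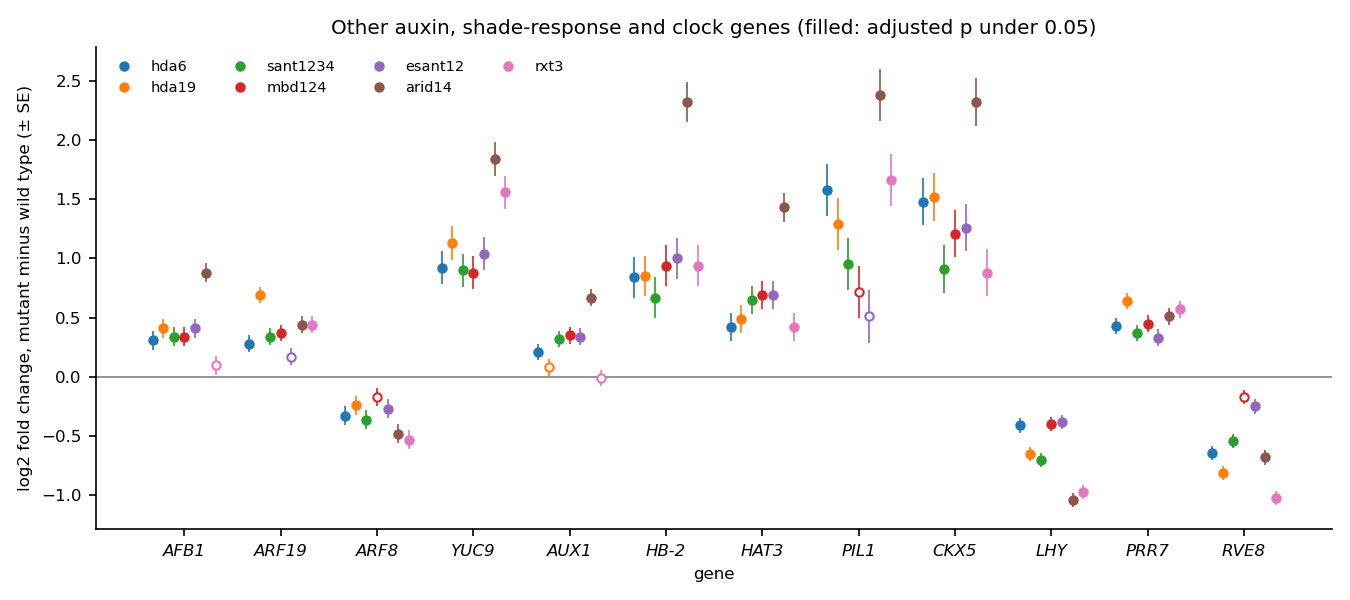
Log2 fold change (± SE) against wild type of 12 genes outside the 2 families in each of the 7 mutants, with filled points at an adjusted p under 0.05 (limma). AFB1, YUC9, AUX1, HB-2, HAT3, PIL1 and CKX5 reach their highest value in arid14, and LHY its lowest, at -1.04.

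Tissue markers also moved. Of 8 markers of green tissue, 2 to 5 were higher and 1 or 2 lower per mutant. Of all genes, 4.73% to 22.3% were higher and 5.27% to 24.9% lower per mutant. LHCB1.3 and LHCB3 were higher in all 7 (0.79 and 0.54 in arid14) and LHCB1.1 in 4 (0.54 in mbd124). RBCS1B was lower in all 7 (-0.90 in arid14) and RBCS2B in 2 (-0.31 in arid14). The summed level of the 8 markers was 718600 to 875400 in the mutant libraries, against 650000 and 686800 in wild type, with no overlap. Of 12 root markers, 5 were higher and 2 lower in rxt3 (22.3% and 24.9% of all genes), among them PLT2 (1.74), EXPA7 (1.01), SCR (-0.63) and SHR (-0.48). SCR was lower in 5 mutants and SHR in 2. PLT2 and EXPA7 were each higher in 2, and WOX5 rose in sant1234 alone (1.42). The sum of the 12 root markers was 3316 and 3581 in rxt3 and 2550 and 3000 in arid14, against 2974 and 3028 in wild type. Flower markers were low, with a sum of 58.12 to 160.7 in the mutant libraries against 58.94 and 65.63 in wild type. Among them SEP3 rose in 5 mutants (1.68 in hda19) and AP3 in 2 (2.38 in sant1234). AG rose in rxt3 (1.63) and fell in esant12 (-1.88). The 7 seed storage markers summed to 10.58 and 272.1 in the 2 rxt3 libraries, 2.471 and 88.07 in esant12, 2.667 and 72.81 in hda19, 4.983 and 41.49 in hda6 and 1.962 to 11.96 in the other mutant libraries, against 3.996 and 7.958 in wild type. A library each of rxt3, esant12, hda19 and hda6 thus stood above the rest, and 4 of the 7 had no read in arid14 and 4 in wild type. The part of these markers in the family levels was not tested.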

How the data were processed

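RNA-seq of 16 seedling libraries was analysed, 2 for each of 8 genotypes. Per the submitters' processing notes, reads were aligned to TAIR10 with HISAT2 2.1.0, counted with featureCounts and treated with edgeR; strand, options and annotation release are not given in the sources used here. The deposited table holds a signal per gene, the edgeR pseudo-counts that the authors adjusted to 1 common library size. Whole read counts were recovered from the deposited values (all within a relative tolerance of 1e-06), and were used for edgeR and DESeq2 only as an alternative, chosen for the unit found. Because the values are normalised, limma 3.58.1 (R 4.3.3) with a mean-variance trend on log2(value + 1) was the main test, in 1 fit of all 16 libraries, with 8 residual degrees of freedom, a minimum of 10 in 2 libraries, and Benjamini-Hochberg adjustment over 20846 genes at 0.05. Replicate numbers were not used to pair libraries in the main fit. Alternatives were a pseudocount of 0.1, no filter, a filter of 50, median-of-ratios rescaling, fits of 2 genotypes, a replicate block, edgeR 4.0.16, DESeq2 1.42.0 and leaving out each library; those for mutant pairs were chosen after seeing the data.

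The members and gene lists were chosen with earlier results of these data known. All 36 members are accounted for. Values in every library are given for members past the F test with the widest range of genotype means (up to 14) and those called in 5 or more mutants with a log2 fold change of 0.5; from each other list, up to 3 called genes per direction with the largest change are named, and all receptors and corepressors. List symbols matched 217 reference names and 5 did not match. Scripts were tested on simulated data. Promoters and coding sequences come from the RefSeq annotation of TAIR10.1.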

Additional observations from a re-analysis of the deposited data

How the results depend on the processing

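Of 75 called pairs of a member and a mutant, 35 were called under every alternative and 40 were lost in at least 1; none changed direction. Losing wild-type replicate 1 removed 30 calls and losing wild-type replicate 2 removed 18, against 15 with no filter, 10 with DESeq2 (7 members had an adjusted p of NA), 5 in fits of 2 genotypes, 3 with edgeR, 1 with a pseudocount of 0.1 and 0 with median-of-ratios rescaling, which moved library medians by -0.012 to 0.012 (log2). None of the 75 called pairs had an adjusted p of NA in DESeq2, so the 10 lost there were tested and not called. Fits of 2 genotypes called 11 members in sant1234 and 6 in mbd124. The labels do not say that replicate numbers pair the libraries. Over all tested genes, 28 correlations of deviations between genotypes ran from -0.09 to 0.12. Being over all genes, they cannot decide pairing for the 31 members. Of these, 27 were higher in replicate 2 in arid14, 26 in hda6, 25 in mbd124, 22 in rxt3 and wild type, 18 in sant1234, 17 in esant12 and 13 in hda19. With the replicate number as a block no call was lost and 13 were added, mbd124 had 6 members called, and mbd124 minus esant12 had 2, where edgeR gave 1. Leaving out 1 library at a time gave 7 to 10 called members in hda6, 6 to 7 in hda19, 3 to 6 in sant1234, 1 to 4 in mbd124, 2 to 6 in esant12, 12 to 19 in arid14 and 12 to 14 in rxt3, and 26 to 29 in the F test. Between mutants it gave 5 to 16 for arid14 minus hda6, 7 to 14 for arid14 minus hda19, 5 to 12 for arid14 minus sant1234, 6 to 14 for arid14 minus mbd124, 2 to 5 for hda6 minus hda19 and 0 to 1 for mbd124 minus esant12. A lone library left in a genotype was assumed to vary like the other genotypes. The cause of these shifts was not tested. With 2 libraries per genotype, members under about 50 normalised reads were among those with the widest errors, with an SE of 0.32 for IAA30 and 0.46 for GH3.1.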
